A study of Caenorhabditis elegans with 20 samples.

Results

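The 10 genes described here build the kinetochore and the centromeric chromatin under it in C. elegans. They were chosen by name and not by a cut on a measured value, but with earlier results of these data known. All 10 were found among the 15568 genes of the RNA-seq table: knl-1 (C02F5.1), knl-2 (K06A5.4), knl-3 (T10B5.6), ndc-80 (W01B6.9), him-10 (R12B2.4), mis-12 (Y47G6A.24), kbp-3 (F26H11.1), hcp-3 (F58A4.3), hcp-4 (T03F1.9) and kbp-1 (R13F6.1). RNA-seq of whole L3 larvae compared 3 genotypes with 2 libraries each. N2 is the wild-type laboratory strain. JA1507 carries lin-35(n745), a nonsense allele of the only p130/Rb-like gene of the worm, and was outcrossed. The htz-1 larvae were homozygous for htz-1(ok3099), a mutant allele of the histone variant gene HTZ-1/H2A.Z, and were the offspring of heterozygous mothers that carried the GFP-marked balancer nT1[qIs51], so maternal product may have remained. Their strain is VC2490 in the sample labels and VC2480 in the study's methods. All larvae were grown at 20°C in liquid culture from embryos that hatched over 24 to 42 h, and no treatment was given. A sucrose gradient served to clean the N2 and lin-35 larvae, whereas htz-1 larvae went through a COPAS sorter that kept the non-GFP homozygotes, so sorting and the htz-1 genotype cannot be told apart.

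At each mitosis the kinetochore joins a chromosome to spindle microtubules. Worm chromosomes are holocentric: the kinetochore forms along the whole length of the chromosome rather than at a single point. Centromeric nucleosomes carry the histone H3 variant HCP-3 (CENP-A), which needs KNL-2 for its loading, and HCP-4 (CENP-C) links this chromatin to the outer kinetochore. There KNL-1, the Mis12 complex (MIS-12, KNL-3 and KBP-1 among its subunits) and the Ndc80 complex (NDC-80, HIM-10, which is the Nuf2 protein, and KBP-3, which is the Spc25 protein) make up the KMN network, the microtubule-binding core. DREAM, which contains the LIN-35 protein, is a repressor complex known for holding cell cycle genes down outside of division, and H2A.Z is a histone variant found at promoters and in gene bodies. In the study's annotation from ChIP-seq at the L3 stage, every gene of the set except him-10 is listed as bound by all DREAM subunits. The study's analyses of DREAM-bound genes left out those at high-occupancy regions and downstream genes of operons. Absence from the list therefore does not by itself show that him-10 is unbound. The ChIP-seq libraries were not analysed here.

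The depth behind the values was similar across libraries. RPKM (reads scaled to the length of the gene model and to library depth) moved in whole-read steps, which places the totals between 13604791 and 18301926 reads per library, with 73.9% to 77.2% in listed genes. The 10 genes had between 52 and 817 reads each in an N2 library, between 208 and 1444 in a lin-35 library and between 53 and 1312 in an htz-1 library, and kbp-1, with a gene model of 580 bases, and kbp-3, with 481 bases, were the shortest models. All 10 passed the filter for testing, which kept the 9679 genes whose RPKM averaged 1 or more across libraries. The transcript of lin-35 was at 11.1 to 13.5 RPKM in all 6 libraries, which does not check the labels of a nonsense mutant. Levels of htz-1 mRNA were 78.5 and 81.3 RPKM in N2, 65.6 and 27.8 RPKM in htz-1, and 138 and 155 RPKM in lin-35. Its change in htz-1 did not pass the test (log2 fold change -0.90, adjusted p = 0.0762 from limma). Larvae were checked against lists of marker genes. The RNA-seq table held 20 of 20 for germ cells, 3 of 6 for intestine and 5 of 6 for body wall muscle. It held 6 of 6 for neurons, 2 of 6 for seam and epidermis and 2 of 5 for pharynx. None of the markers it held was at 0 in any library.

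All 10 kinetochore and centromere genes were higher in lin-35 larvae than in N2. Log2 fold changes ran from 0.78 for hcp-4 to 3.14 for kbp-3, with a median of 1.27, beside a median of -0.01 over all tested genes. Each passed limma at an adjusted p under 0.05 in the higher direction, as 12.1% of all tested genes did, and none was lower (limma-voom gave 0, and so did an unadjusted p under 0.05). Both lin-35 libraries lay above both N2 libraries in RPKM for every one of the 10, which held for 47.6% of all tested genes. In htz-1 larvae 9 of the 10 were higher than in N2, beside 15.2% of all tested genes, and their median log2 fold change was 0.71 (0.00 over all tested genes), and none was lower by any of these tests. The exception was kbp-1. Fold changes here and below come from limma on log2(RPKM + 0.5) after scaling of the libraries, a scale that understates changes of low genes, and p-values are adjusted over all tested genes. Nothing in the labels or methods says that replicate libraries are separate cultures. A p-value thus reflects only how far libraries of a genotype differ, as a spread pooled over the 3 genotypes and moderated across genes. That spread may be technical. In whole larvae, more cells that express a gene and more RNA per cell cannot be told apart.

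**Figure D1:**
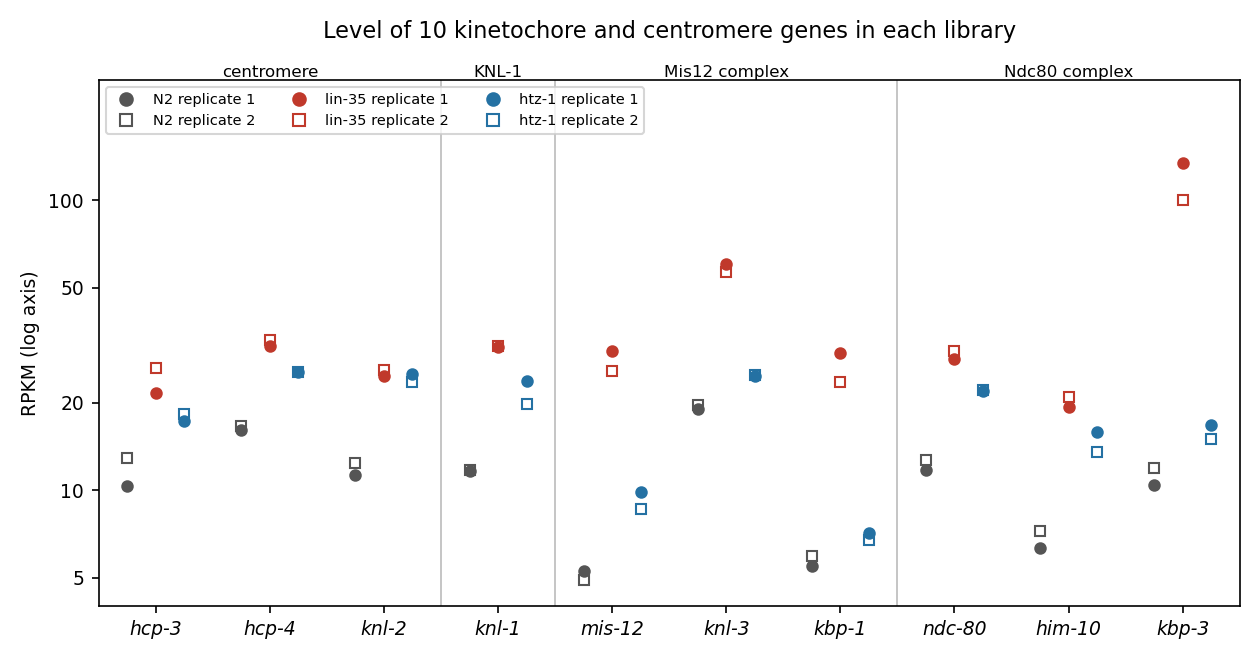
RPKM (log axis) of the 10 genes in each of the 6 libraries, grouped by the assembly they belong to, with filled circles for replicate 1 and open squares for replicate 2 in N2 (grey), lin-35 (red) and htz-1 (blue). Both lin-35 libraries and both htz-1 libraries lie above both N2 libraries for all 10 genes, and kbp-3 in lin-35, at 135 and 100.0 RPKM, stands above every other point.

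In lin-35 the 3 centromere genes had the smallest rises of the set, from 0.78 to 0.89 log2 units, and in htz-1 all 3 rose as well. HCP-3, the CENP-A histone, marks where the kinetochore forms. Its gene hcp-3 was at 10.4 and 12.9 RPKM in N2, 21.6 and 26.4 RPKM in lin-35 and 17.3 and 18.4 RPKM in htz-1. The N2 libraries were the lowest and the lin-35 libraries the highest, with no overlap between genotypes. The log2 fold change of hcp-3 was 0.84 ± 0.16 in lin-35 (SE, n = 2 libraries per genotype, adjusted p = 0.0101 from limma) and 0.60 ± 0.16 in htz-1 (adjusted p = 0.0305 from limma). Its N2 libraries differed by 0.32 log2 units, the most of any of the 10 genes in N2. Without N2 replicate 1 neither hcp-3 call passed (0.68 with an adjusted p of 0.0716 in lin-35 and 0.43 with 0.186 in htz-1, both from limma), nor did the htz-1 call without htz-1 replicate 1 (0.67, adjusted p = 0.0618) or without htz-1 replicate 2 (0.54, adjusted p = 0.129).

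HCP-4, the CENP-C protein, is the bridge from CENP-A chromatin to the outer kinetochore. The level of hcp-4 was 16.2 and 16.7 RPKM in N2, 31.4 and 33.1 RPKM in lin-35 and 25.5 and 25.6 RPKM in htz-1. Replicates were close and genotypes were apart. The log2 fold changes were 0.78 ± 0.10 (SE) in lin-35 and 0.62 ± 0.10 in htz-1 (adjusted p = 0.00189 and 0.00481 from limma), the first being the smallest rise of the set in lin-35. KNL-2 is the Myb-domain protein that CENP-A loading needs. Its gene knl-2 was at 11.3 and 12.4 RPKM in N2, 24.7 and 25.9 RPKM in lin-35 and 25.2 and 23.6 RPKM in htz-1. The mutants overlapped each other, and both lay above N2. The log2 fold changes of knl-2 were 0.89 ± 0.11 in lin-35 (adjusted p = 0.00153 from limma) and 1.00 ± 0.11 in htz-1 (adjusted p = 0.00125 from limma).

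KNL-1 is the scaffold of the outer kinetochore and the docking site for the checkpoint kinase BUB-1. The level of knl-1 was 11.6 and 11.8 RPKM in N2, 31.3 and 31.4 RPKM in lin-35 and 23.8 and 19.9 RPKM in htz-1. The lin-35 libraries were nearly equal, whereas the htz-1 libraries differed by 0.21 log2 units, the most of any of the 10 genes in htz-1. The log2 fold changes were 1.21 ± 0.11 (SE) in lin-35 and 0.86 ± 0.11 in htz-1 (adjusted p = 0.000474 and 0.00217 from limma).

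The 3 Mis12 complex genes all rose in lin-35, by 1.39 to 2.18 log2 units, and were less uniform in htz-1. This complex joins centromeric chromatin to KNL-1 and the Ndc80 complex. Its subunit gene mis-12 was at 5.28 and 4.89 RPKM in N2, 30.3 and 25.8 RPKM in lin-35 and 9.84 and 8.61 RPKM in htz-1, so the lin-35 libraries stood far above the others. The log2 fold changes of mis-12 were 2.18 ± 0.12 in lin-35 (SE, adjusted p = 0.000101 from limma) and 0.79 ± 0.12 in htz-1 (adjusted p = 0.0044 from limma). The subunit gene kbp-1, named for a KNL-1 binding protein, was at 5.46 and 5.93 RPKM in N2, 29.7 and 23.7 RPKM in lin-35 and 7.13 and 6.72 RPKM in htz-1. The htz-1 values of kbp-1 were just above N2 and far from lin-35. The log2 fold change of kbp-1 was 1.95 ± 0.14 in lin-35 (adjusted p = 0.000171 from limma) but 0.25 ± 0.14 in htz-1, which did not pass (adjusted p = 0.194 from limma, 95% interval -0.07 to 0.57).

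The third subunit gene, knl-3, was the most abundant of the 10 in N2, at 19.1 and 19.7 RPKM. It was at 60.2 and 56.4 RPKM in lin-35 and at 24.9 RPKM in each htz-1 library. The log2 fold change of knl-3 was 1.39 ± 0.09 in lin-35 (SE, adjusted p = 0.000132 from limma) and 0.35 ± 0.09 in htz-1 (adjusted p = 0.0255 from limma). The htz-1 call of knl-3 failed when any 1 library of N2 or htz-1 was left out, with log2 fold changes of 0.31 without N2 replicate 1 (adjusted p = 0.167), 0.37 without N2 replicate 2 (adjusted p = 0.108), 0.38 without htz-1 replicate 1 (adjusted p = 0.0521) and 0.32 without htz-1 replicate 2 (adjusted p = 0.0941), all from limma.

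The Ndc80 complex, which binds microtubules directly, held both an even pair of genes and the largest change of the set. Its gene ndc-80 was at 11.7 and 12.7 RPKM in N2, 28.4 and 30.2 RPKM in lin-35 and 21.98 and 22.10 RPKM in htz-1. The log2 fold changes of ndc-80 were 1.06 ± 0.11 in lin-35 (SE, adjusted p = 0.000765 from limma) and 0.82 ± 0.11 in htz-1 (adjusted p = 0.00238 from limma). The Nuf2 gene him-10, whose mutants lose chromosomes and so give a high incidence of males, was at 6.30 and 7.21 RPKM in N2, 19.4 and 21.0 RPKM in lin-35 and 15.9 and 13.5 RPKM in htz-1. Both genes had the order N2, htz-1, lin-35 without overlap. The log2 fold changes of him-10 were 1.34 ± 0.13 in lin-35 (adjusted p = 0.00068 from limma) and 1.06 ± 0.13 in htz-1 (adjusted p = 0.00206 from limma), the latter the largest rise of the set in htz-1.

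The Spc25 gene kbp-3 was at 10.45 and 11.97 RPKM in N2, 135 and 100.0 RPKM in lin-35 and 16.83 and 14.98 RPKM in htz-1. These rest on 92 and 87 reads in N2, 967 and 729 reads in lin-35 and 141 and 98 reads in htz-1. The lin-35 libraries differed from each other by 0.37 log2 units, the most of any of the 10 genes in lin-35, and both stood far above the other genotypes. The log2 fold change of kbp-3 in lin-35 was 3.14 ± 0.15 (SE, adjusted p = 4.86e-05 from limma), rank 98 among the 9679 tested genes. In htz-1 it was 0.48 ± 0.15 (adjusted p = 0.0441 from limma), a call that passed under 6 of 15 alternatives. It was 0.37 without N2 replicate 1 (adjusted p = 0.235), 0.58 without N2 replicate 2 (adjusted p = 0.0873), 0.43 without htz-1 replicate 1 (adjusted p = 0.142), 0.54 without htz-1 replicate 2 (adjusted p = 0.0985) and 0.51 with limma-voom on recovered reads (adjusted p = 0.167).

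Of the 9 genes called higher in htz-1, 6 were called without N2 replicate 1, without htz-1 replicate 1 or without htz-1 replicate 2, and 7 without N2 replicate 2. Over all tested genes the share called higher in htz-1 fell from 15.2% to 5.93% without N2 replicate 1, 7.25% without N2 replicate 2, 12% without htz-1 replicate 1 and 8.39% without htz-1 replicate 2. The genes knl-1, knl-2, ndc-80, him-10, mis-12 and hcp-4 passed under all 15 alternatives in both mutants. The sample names carry codes whose meaning is not given: replicate 1 of N2 and of lin-35 share one code and replicate 2 of each share another, while the htz-1 libraries have codes of their own. Within the shared codes all 10 genes were higher in lin-35, beside medians over all tested genes of -0.02 and -0.003 log2 units. The differences were 3.43 and 2.85 log2 units for kbp-3, 2.15 and 1.75 for kbp-1, 2.22 and 2.13 for mis-12 and 0.74 and 0.81 for hcp-4. For htz-1 the code and the genotype cannot be told apart.

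Larvae of lin-35 and htz-1 were then compared directly, which tests whether the changes in the mutants differ without setting side by side comparisons that share the N2 libraries. Of the 10 genes, 4 were higher in lin-35 than in htz-1, beside 15.3% of all tested genes, and none was lower (limma-voom gave 0, and so did an unadjusted p under 0.05). They were all 3 Mis12 complex genes and 1 of the 3 Ndc80 complex genes. The log2 differences were 2.66 ± 0.15 for kbp-3 (SE, adjusted p = 9.36e-05 from limma), 1.70 ± 0.14 for kbp-1 (adjusted p = 0.000306), 1.38 ± 0.12 for mis-12 (adjusted p = 0.000448) and 1.04 ± 0.09 for knl-3 (adjusted p = 0.00038), and each of these passed under all 15 alternatives.

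The 6 other genes did not pass in this direct comparison. The 95% intervals of the log2 difference between lin-35 and htz-1 ran from 0.09 to 0.61 for knl-1 (adjusted p = 0.0528 from limma), from -0.03 to 0.60 for him-10, from -0.02 to 0.49 for ndc-80, from -0.14 to 0.63 for hcp-3, from -0.08 to 0.39 for hcp-4 and from -0.37 to 0.14 for knl-2. A difference of up to these bounds is not excluded. For knl-1 the call depended on the setting: it passed with limma-voom (0.35, adjusted p = 0.0359) and without htz-1 replicate 1 (0.45, adjusted p = 0.0461). With the RPKM as deposited, the median of all tested genes moved to 0.16 log2 units in favour of lin-35. In that fit 8 of the 10 passed, and of all 9679 tested genes 2286 were called higher, from 1484. In RPKM both lin-35 libraries lay above both htz-1 libraries for 9 of the 10 genes, as for 47.0% of all tested genes, and knl-2 was the exception. The corresponding share of all tested genes for htz-1 above N2, where all 10 genes were apart, was 35.8%.

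**Figure D2:**
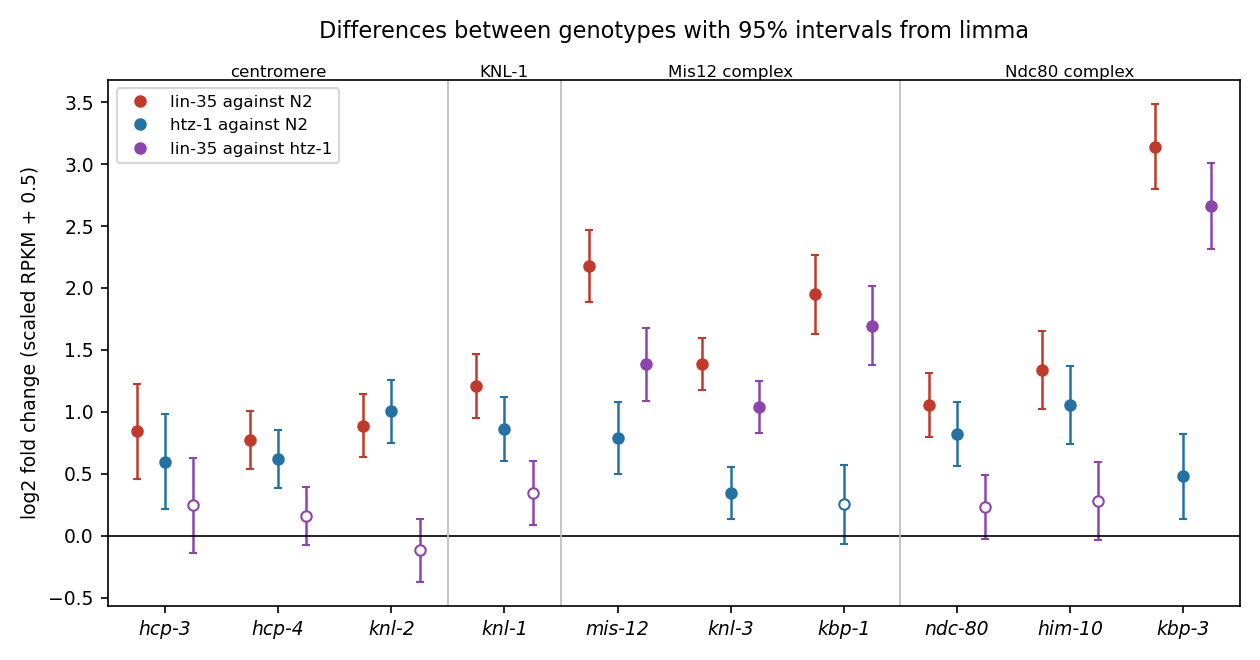
Log2 fold changes (vertical axis, log2 of scaled RPKM + 0.5) of the 10 genes from limma for lin-35 against N2 (red), htz-1 against N2 (blue) and lin-35 against htz-1 (purple), with bars for 95% intervals. Filled points passed at an adjusted p under 0.05 and open points did not. All 10 red points, 9 blue points and 4 purple points are filled.

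The order of the levels, read per length in RPKM, changed between genotypes. In N2 the highest was knl-3, with a mean of 19.4 RPKM, followed by hcp-4 with 16.4 RPKM. The genes ndc-80, knl-2, knl-1, hcp-3 and kbp-3 lay between 11.2 and 12.2 RPKM, and each overlapped its neighbour in this order. Below them him-10, kbp-1 and mis-12 were apart from each other, at 6.76, 5.70 and 5.09 RPKM, so the highest gene was 3.81-fold above the lowest.

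In lin-35 kbp-3 came first with a mean of 117 RPKM, 5.81-fold above him-10, the lowest at 20.2 RPKM. After knl-3 with 58.3 RPKM, the other genes were close together, from 32.2 RPKM for hcp-4 to 24.0 RPKM for hcp-3, and most neighbours in this order overlapped. The Mis12 genes mis-12 and kbp-1, lowest in N2, were in the middle of this range. In htz-1 the order ran from hcp-4 at 25.6 RPKM to kbp-1 at 6.92 RPKM, 3.69-fold. There mis-12 and kbp-1 were again the lowest, each apart from its neighbours.

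Genes of one assembly did not all keep their ratios. The RPKM ratio of kbp-3 to ndc-80 was 0.893 and 0.942 in N2, 4.74 and 3.31 in lin-35, and 0.766 and 0.678 among htz-1 libraries. The ratio of him-10 to ndc-80, another pair of the Ndc80 complex, was 0.539 and 0.568 in N2, 0.684 and 0.694 for lin-35, then 0.721 and 0.612 for htz-1. In the Ndc80 complex the change of ratio in lin-35 was thus large for kbp-3 and small for him-10. In the Mis12 complex mis-12 to knl-3 went from 0.277 and 0.249 in N2 to 0.503 and 0.458 in lin-35, with htz-1 between these genotypes at 0.396 and 0.346. The ratio of kbp-1 to mis-12 was 1.03 and 1.21 in N2, 0.980 and 0.916 in lin-35, and lowest in htz-1 at 0.724 and 0.780. At the centromere the pairs differed. The ratio of knl-2 to hcp-3 was 1.09 and 0.963 in N2, 1.14 and 0.981 in lin-35, and higher in both htz-1 libraries, at 1.45 and 1.29. In contrast, hcp-4 to hcp-3 stayed within one range, at 1.56 and 1.29 in N2, 1.45 and 1.25 for lin-35, then 1.48 and 1.39 for htz-1. These ratios are a description: with 2 libraries against 2 an exact two-sided permutation test cannot go below p = 0.333.

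**Figure D3:**
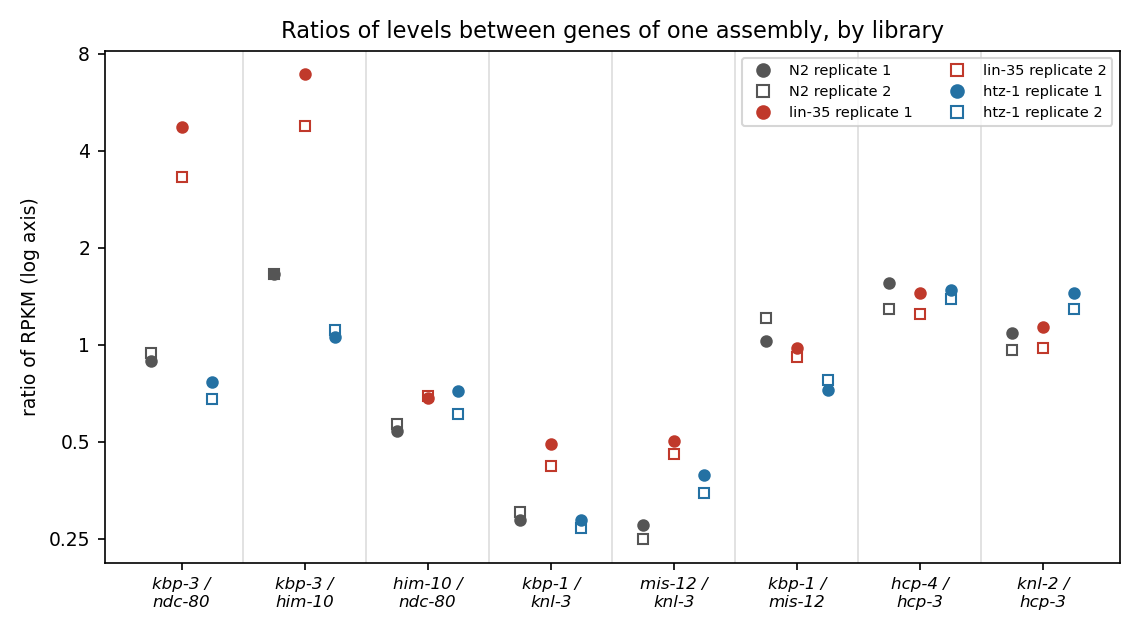
Ratio of the RPKM of one gene to that of another gene of the same assembly (log axis) in each library, with filled circles for replicate 1 and open squares for replicate 2. The kbp-3 to ndc-80 ratio in lin-35 (red), 4.74 and 3.31, stands apart from 0.678 to 0.942 in the other genotypes, while hcp-4 to hcp-3 overlaps between all 3 genotypes.

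Other kinetochore, centromere and spindle checkpoint genes were read from a list of 23 symbols that leaves out the 10, of which 22 were in the table and tested. In lin-35, 17 of the 22 were higher and none was lower (limma-voom gave 0, and so did an unadjusted p under 0.05), and the median was 0.84 log2 units. In htz-1, 14 were higher and none was lower with limma or limma-voom, with 1 lower at an unadjusted p under 0.05 and a median of 0.47. Left-out libraries moved these counts: without N2 replicate 1 they were 11 in lin-35 and 3 in htz-1, and in htz-1 they were 9 without N2 replicate 2 and 7 without htz-1 replicate 2. Calls fell over all tested genes too: without N2 replicate 1 the share called higher was 7.11% in lin-35, from 12.1%, and the htz-1 shares in these 3 fits were 5.93%, 7.25% and 8.39%, from 15.2%.

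The largest rise on this list in both mutants was in kbp-4, the Spc24 gene, whose protein pairs with KBP-3 in the Ndc80 complex. It was at 7.93 and 10.6 RPKM in N2, 53.8 and 38.1 RPKM in lin-35 and 17.998 and 21.3 RPKM in htz-1. Its log2 fold changes were 2.07 ± 0.20 in lin-35 and 1.05 ± 0.20 in htz-1 (SE, adjusted p = 0.000638 and 0.0093 from limma), and the direct difference of 1.02 passed as well (adjusted p = 0.0111). Next in lin-35 came spdl-1, the Spindly gene that brings dynein to kinetochores (1.66 in lin-35 and 0.72 in htz-1), and zwl-1, a subunit of the RZZ complex (1.28 and 0.62). The Mad3-like checkpoint gene san-1 rose in lin-35 (1.22 ± 0.23, adjusted p = 0.00901 from limma), and its value in htz-1 was 0.03 ± 0.23 (adjusted p = 0.924). The direct difference of san-1 was 1.19 (adjusted p = 0.00985 from limma).

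The checkpoint kinase gene bub-1 rose by 1.06 ± 0.09 log2 units in lin-35 and 0.73 ± 0.09 in htz-1. The CENP-F-like genes hcp-1 and hcp-2 rose by 0.78 and 0.95 in lin-35, and their rises in htz-1 were 0.76 and 0.82. Between the mutants, hcp-1 differed by 0.02 (95% interval -0.29 to 0.32) and hcp-2 by 0.14 (-0.14 to 0.41). The gene cpar-1, a close relative of the CENP-A gene hcp-3, was low, at 1.58 to 3.30 RPKM in all libraries, and its values of 0.45 ± 0.24 and 0.22 ± 0.24 did not pass (adjusted p = 0.233 and 0.512 from limma). Reads of hcp-3 and cpar-1 may be shared where the genes are alike. In the direct comparison of the mutants 14 of the 22 were higher in lin-35 and none was lower (limma-voom gave 0, and so did an unadjusted p under 0.05). That count was 5 to 8 with any 1 library left out, 5 being without htz-1 replicate 2 and 6 without lin-35 replicate 1, where the share of all tested genes called higher was 8.86% and 9.98%, from 15.3%.

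**Figure D4:**
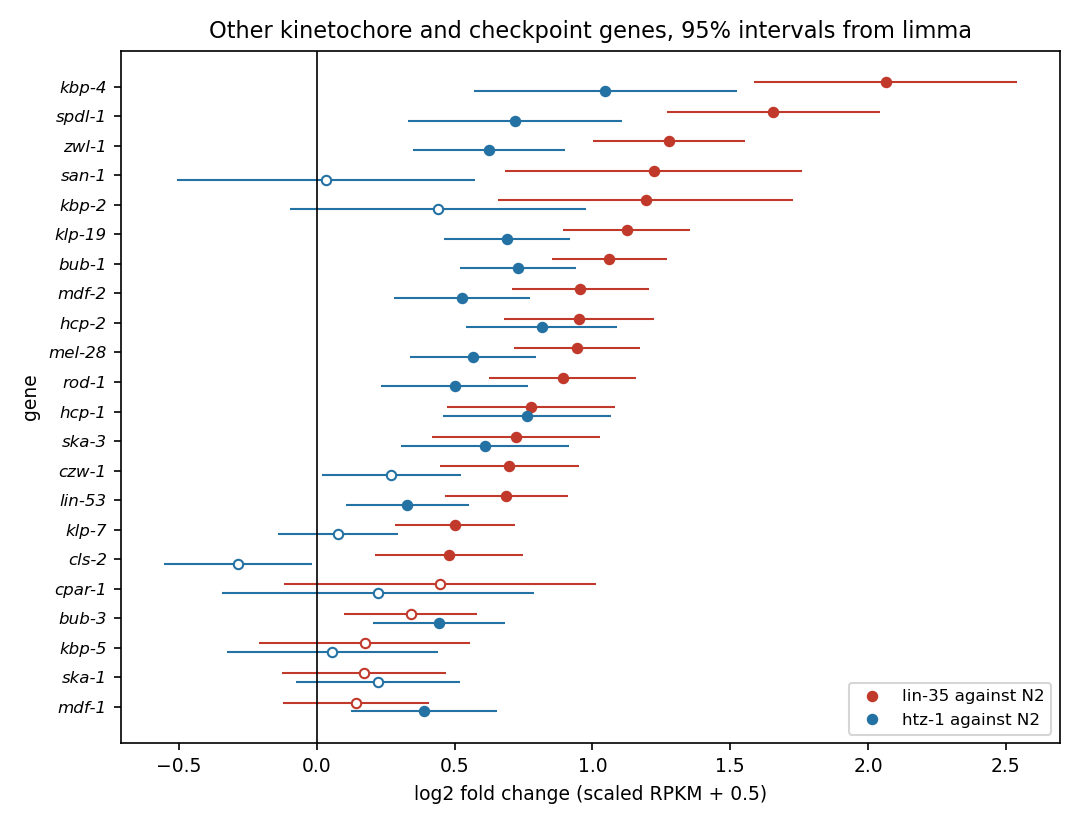
Log2 fold changes (horizontal axis, log2 of scaled RPKM + 0.5) of the 22 other kinetochore and checkpoint genes in lin-35 (red) and htz-1 (blue) against N2 from limma, with lines for 95% intervals and filled points for an adjusted p under 0.05. The 17 filled red points and 14 filled blue points all lie right of 0, with kbp-4 at the top at 2.07 and 1.05.

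Division genes outside the kinetochore were read as context from a list of 24 cyclins, mitotic kinases, chromosomal passenger and replication genes, 23 of them tested. In lin-35, 18 were higher, and in htz-1, 15, beside 12.1% and 15.2% of all tested genes, with medians of 0.95 and 0.57. None was lower in either with limma or limma-voom, and at an unadjusted p under 0.05 the lower genes were 0 in lin-35 and 1 in htz-1. In htz-1 the count was 10 without N2 replicate 1 or N2 replicate 2, fits in which 5.93% and 7.25% of all tested genes were called higher. In lin-35 the largest rise was in the Aurora A kinase gene air-1 (1.86 ± 0.10), which the replication helicase gene mcm-7 (1.40 ± 0.09) and the Aurora B gene air-2 (1.40) followed. In htz-1 the ribonucleotide reductase gene rnr-1 was first, with 1.05 ± 0.12, then the cyclin B gene cyb-1 with 1.02 and air-1 with 1.01 ± 0.10. In lin-35 against htz-1, 11 were higher, beside 15.3% of all tested genes, and none was lower (limma-voom gave 0, and so did an unadjusted p under 0.05).

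Germ cells hold much of the mitosis of an L3 larva, so their markers were read beside the kinetochore genes. The summed level of 20 germ cell markers was 364 to 394 RPKM in N2, 970 to 1050 RPKM in lin-35 and 459 to 545 RPKM in htz-1. In lin-35, 7 of the 20 were higher and 1 was lower, beside 12.1% and 11.6% of all tested genes, and the median was -0.03. The rises were uneven: the P granule gene pgl-3 rose by 4.17, the synapsis genes him-3 and syp-1 by 2.96 and 2.46 and the P granule gene pgl-1 by 1.81, while the meiosis gene daz-1 fell by 0.98. In htz-1, 8 were higher and none was lower (limma-voom gave 0, and so did an unadjusted p under 0.05), with a median of 0.43, beside 15.2% higher and 16.5% lower over all tested genes. In lin-35 against htz-1, 5 were higher and 6 were lower, with a median of -0.50, beside 15.3% and 14.5% of all tested genes. The htz-1 count was 3 without N2 replicate 1, 5 without N2 replicate 2 and 4 without htz-1 replicate 2, the count lower in lin-35 than in N2 was 5 without lin-35 replicate 2, and the count lower in lin-35 than in htz-1 ran from 1 without htz-1 replicate 2 to 10 without lin-35 replicate 2. The germ cell markers' part in the changes of the kinetochore genes was not tested.

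Markers of other tissues were read in the same way. The summed level of 3 intestine markers was 690 to 810 RPKM in N2, 436 to 507 RPKM in lin-35 and 469 to 551 RPKM in htz-1, almost all of it from the actin gene act-5, which fell in both mutants (log2 fold changes of -0.99 and -0.63). The other intestine markers, elt-2 and ges-1, rose in lin-35 (0.65 and 0.52), so the median of the 3 was 0.52. The sum of 6 neuron markers was 290 to 302 RPKM in N2, 352 to 362 RPKM in lin-35 and 294 to 302 RPKM in htz-1, mostly from the synaptobrevin gene snb-1, which rose in both mutants (0.30 and 0.31). Of the 6, 1 other gene, rab-3, was lower in lin-35 and 3 were lower in htz-1, beside 11.6% and 16.5% of all tested genes. The medians of the 6 were -0.11 and -0.33. The sum of 5 body wall muscle markers was 2550 to 2750, 1870 to 2160 and 2670 to 2750 RPKM in the same order. In lin-35, 3 of the 5 were lower, beside 11.6% of all tested genes. The sum of 2 seam and epidermis markers was 23.3 to 26.0 RPKM in N2, 34.6 to 45.0 RPKM in lin-35 and 43.8 to 55.1 RPKM in htz-1, and that of 2 pharynx markers 20.8 to 21.5, 22.1 to 29.4 and 24.2 to 26.7 RPKM. The part of these other tissue markers was not tested either.

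The genes lie on 5 chromosomes. The gene knl-3 is on V, ndc-80 on IV and kbp-3 on II, knl-2, mis-12 and hcp-4 are on I and the rest on III. By the WBcel235 annotation, 6 of the 10 overlap another coding gene (knl-2, knl-3, ndc-80, mis-12, hcp-3 and kbp-1). Counting was by HTSeq in union mode with no strand setting stated, so reads of a pair may be dropped or counted for the other gene. The overlapping genes that were tested did not rise with them: acdh-3 (over knl-2), T10B5.4 (over knl-3), ttr-39 (over ndc-80) and F58A4.6 (over hcp-3) had log2 fold changes of -0.15, -0.45, -0.06 and -0.05 in lin-35, and those in htz-1 were -0.46, -0.75, -0.44 and -0.08. The genes that overlap mis-12 and kbp-1 were below the filter and not tested. Y47G6A.31 (over mis-12) had mean levels of 0.128 RPKM in N2, 1.91 RPKM in lin-35 and 0.129 RPKM in htz-1, so it was higher in lin-35. K04C2.8 (over kbp-1) had means of 0.157, 0.3 and 0.3 RPKM in the same order. Of the 20 nearest coding genes on either side that do not overlap the 10 genes, 14 were tested. In lin-35, 4 of these were higher and 4 lower, beside 12.1% and 11.6% of all tested genes, and in htz-1, 1 was higher and 6 lower, beside 15.2% and 16.5%. One of the 4, Y47G6A.3, passed the filter only through the lin-35 libraries.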

How the data were processed

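Whole L3 larvae of N2, lin-35 and htz-1 were profiled by RNA-seq, with 2 libraries per genotype grouped by the sample titles. The authors aligned reads to WS220/ce10 with BWA 0.6.2 and SAMtools 0.1.18, counted them per gene with HTSeq and deposited RPKM for each library. The strand setting and replicate origin are not given in the sources used here. Oscillating genes had been left out by the authors. The table also holds the authors' mean RPKM, their deposited log2 fold changes and their deposited p-values with adjusted values, from DESeq2, none of which was used. The series' 14 ChIP-seq and input samples were not analysed here.

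Whole reads were recovered from the RPKM steps (tolerance 0.002 reads) for all 15568 genes. On a single simulated table, all reads of 97.3% of genes were returned. The WBcel235 gene table gave symbols for 15397 sequence names. From it came chromosomes and which genes overlap or neighbour each other. Its assembly is not the one used for the alignment, and none of its coordinates is printed. Promoter and protein sequences were not analysed here, and the planned motif search was therefore not run.

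RPKM were divided by median-of-ratios size factors (0.949 to 1.11). log2(RPKM + 0.5) of the 9679 genes that averaged an RPKM of 1 or more was fitted with limma 3.58.1 in R 4.3.3, with a variance trend and all 3 genotypes in 1 fit (3 residual and 4.01 prior degrees of freedom). Tests were two-sided, with Benjamini-Hochberg adjustment over all tested genes at 0.05. The deposited values are no counts, so DESeq2 was not run. Tested on simulated data, the fit called 78 (lin-35 against N2) and 81 (htz-1 against N2) of 100 genes given a change of 1 log2 unit, and 100 of 100 given 2 log2 units in each. Unchanged genes made up 5.82% and 7.18% of the calls. The simulation used a set dispersion of 0.02, drew the changed genes from levels above the filter and left all other genes unchanged. Fewer genes changed there than were called in the data, so the rates hold for that setting only.

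The 10 genes and the lists were chosen with earlier results of these data known. All 10 genes are named. From each list up to 4 called genes per comparison were named by size, plus cpar-1, bub-1, hcp-1, hcp-2 and kbp-4. The 5 genes most similar to the 10 are named too. Overlapping and neighbouring genes were chosen by position, and those described singly after their values were seen. Alternatives were RPKM as deposited, quantile normalization, pseudocounts of 0.1 and 1, limma-voom on the recovered reads, a replicate block, no filter, no variance trend, a fit of only the 2 genotypes compared and each library left out.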

Additional observations from a re-analysis of the deposited data

How the results depend on the processing

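Of 450 values of the 10 genes over 3 comparisons and 15 alternatives, 425 kept their direction and their side of the threshold, 18 were no longer past it, 6 came past it and 1 reversed: knl-2 in lin-35 against htz-1 was 0.0533 with the RPKM as deposited, beside -0.12. The RPKM as deposited moved the median of all tested genes to 0.15 in lin-35 against N2 and 0.16 in lin-35 against htz-1. The split of higher and lower genes became 1781 and 592 (from 1175 and 1125) and 2286 and 815 (from 1484 and 1405), and 8 of the 10 genes passed in lin-35 against htz-1. With 1 library left out, the genes called of the 10 were 9 to 10 in lin-35, 6 to 9 in htz-1 and 4 to 5 in lin-35 against htz-1. The spread of the lone library left in a genotype is then taken from the other genotypes. The other kinetochore genes called higher were then 11 to 17, 3 to 14 and 5 to 8, and 8 in lin-35 against htz-1 with only the 2 genotypes compared. For germ cell markers, left-out libraries gave 1 to 5 lower in lin-35, 3 to 11 higher in htz-1 and 1 to 10 lower in lin-35 against htz-1. That last count, 6, was 3 with the RPKM as deposited, without the filter, with only the 2 genotypes compared and without the variance trend, 10 with quantile normalization and 11 with the replicate block. Division genes lower in lin-35 against htz-1 were 0 to 1 with a library left out and 1 with quantile normalization. The cause of these changes was not tested.

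The names of N2 and lin-35 libraries with the same replicate number share a code that the labels do not explain, and htz-1 libraries share none with them, so the numbers were not taken as pairs. Differences between replicates 1 and 2 correlated across genes by 0.32 between N2 and lin-35, 0.10 between N2 and htz-1 and 0.02 between lin-35 and htz-1. With the replicate block 10, 9 and 4 of the 10 genes passed in the 3 comparisons, as without it. Counts of 52 to 92 reads per N2 library limit the precision for kbp-1 and kbp-3, and 2 libraries per genotype allow no test for outlying samples.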

Other observations

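Genes beside a kinetochore gene sometimes moved too. Next to mis-12, Y47G6A.25 was at 3.55 and 4.12 RPKM in N2, 41.7 and 33.0 RPKM in lin-35 and 5.60 and 4.48 RPKM in htz-1. Its log2 fold change was 2.95 ± 0.16 in lin-35 (SE, adjusted p = 9.01e-05 from limma) and 0.34 in htz-1 (adjusted p = 0.148). On the other side Y47G6A.3 was at 0.164 and 0 RPKM in N2, 8.86 and 9.62 RPKM in lin-35 and 0.432 and 0.442 RPKM in htz-1. It passed the filter only through the lin-35 libraries and N2 is at about 0, so no fold or test is given for it. Next to hcp-3, the DNA primase gene pri-1 rose in both mutants, by 1.04 ± 0.15 and 0.91 ± 0.15 (adjusted p = 0.00287 and 0.00489 from limma). Next to kbp-3, the chromatin remodeller gene nurf-1 had levels of 58.3 and 52.7 RPKM in N2, 93.3 and 94.8 RPKM in lin-35 and 29.4 and 25.2 RPKM in htz-1, a rise of 0.58 and a fall of 1.02 log2 units (adjusted p = 0.00632 and 0.000939 from limma). These 4 are the flanking genes called higher in lin-35, and they were singled out after their values were seen.

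The genes most like the median profile of the 10 over the 6 libraries were pch-2, an AAA-ATPase gene of the meiotic and spindle checkpoints (Pearson r = 0.9981), mat-3, a subunit gene of the anaphase-promoting complex (0.9970), Y69A2AR.28 (0.9968), the cohesin gene scc-1 (0.9968) and rnf-1 (0.9960). The level of pch-2 was 5.03 and 5.56 RPKM in N2, 14.4 and 15.6 RPKM in lin-35 and 9.65 and 9.16 RPKM in htz-1. Among 9669 other tested genes, 179 had an r of at least 0.95, so a like profile over 6 libraries of 3 genotypes is not rare. The 10 genes themselves ranged from 0.83 for kbp-1 to 0.988 for ndc-80. All points share the libraries and the 3 genotypes.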
